A study of Mus musculus with 8 samples.

Results

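The 10 genes described here encode the parts of the elastic fibre and the enzymes that assemble it: Eln, Fbn1, Fbn2, Mfap4, Fbln5, Efemp2, Ltbp4, Emilin1, Lox and Loxl1. They were taken by symbol, each matched 1 Ensembl ID, and they are 10 of 55385 genes counted in whole lungs of mouse fetuses. The study occluded the fetal trachea and asked which genes differ from control lungs. All fetuses were C57BL/6 and all lungs were taken at E18.5. In tracheal occlusion (TO) fetuses a suture passed through the uterine wall at E16.5 closed the trachea together with a carotid artery and a jugular vein, the dams were given progesterone, and how control fetuses were handled is not stated in the sources used here. There were libraries of 4 control and 4 TO lungs, named by group and replicate number. Nothing in the labels says whether libraries of a group share a litter or a dam, so the p-values measure the spread between these libraries, which may be technical in part.

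The elastic fibre is a core of cross-linked elastin on a scaffold of fibrillin microfibrils. Tropoelastin, the soluble product of Eln, is gathered onto the scaffold by fibulins and related adaptor proteins, and lysyl oxidases then join its lysines into a polymer that can recoil. In the lung, smooth muscle cells, myofibroblasts, endothelial cells and mesothelial cells make elastin, and the fibres run through vessel walls, around airways and, from late gestation, in the walls between air spaces. In RNA of whole lung, fewer cells of a type and less RNA per cell cannot be told apart.

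In TO 1, 270078 read pairs were counted on genes, against 22822261 to 35002061 in the other 7 libraries, so that a single read pair in TO 1 is worth 3.44 CPM (counts scaled to a common library size with TMM factors) against 0.0284 to 0.0438 CPM elsewhere. The comparison was therefore made first in control 1, 2 and 4 against TO 2, 3 and 4, the specimens in the published mRNA-seq figure, and then in all 8 libraries. Control 3, the other library outside the 6, had full depth. The specimen names share their last digits across groups: numbers 1 and 4 of both groups carry one set, number 2 of both another and number 3 of both the last, and what the digits stand for is not given in the sources used here. The share of gene counts taken by the 10 genes was 0.577% to 1.53% per library, with TO 1 lowest and control 3 highest, and Eln alone held 0.238% to 0.942%.

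Eln was among the genes with the highest CPM in these lungs, a measure not corrected for gene length. Neither Eln nor any other elastic fibre gene was called different between TO and control. In the 6 libraries, edgeR called 0 of the 10 genes at an adjusted p under 0.1, where it called 0% of the 21859 genes tested. At an unadjusted p under 0.05 it passed 1 of the 10, Efemp2, against 5.14% of all genes tested. DESeq2 called 0 of the 10 and 0.239% of the genes it gave an adjusted p, and passed 2 of the 10, Eln and Efemp2, at an unadjusted p under 0.05, against 6.13% of all genes. With all 8 libraries edgeR called 0 of the 10 and 0% of 22545 genes, passing 0 of the 10 and 2.35% of all genes without adjustment, and DESeq2 again called 0 of the 10, against 0.0311% of all genes. With same-numbered libraries as a block in the 8-library edgeR fit, 0 of the 10 were called and 0.0133% of all genes. At an unadjusted p under 0.05, 3 of the 10 passed with TO lower: Fbn2, Mfap4 and Lox. Over all genes 4.4% passed in either direction and 1.67% with TO lower. This fit includes the shallow TO 1, which lay below control 1 for Fbn2, Mfap4 and Lox (log2 difference -0.60, -0.94 and -0.83). Without TO 1 and without the block, their log2 fold changes were -0.48, -0.06 and -0.27 in that order. The directions were split in the 6 libraries, with 5 genes higher and 5 lower in TO and a median log2 fold change of 0.03, against 0.00 over all genes tested. With all 8 libraries 1 gene was higher and 9 were lower (median -0.15, against -0.02 over all genes), and without the shallow TO 1 the split was 5 and 5 again (median -0.03).

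**Figure D1:**
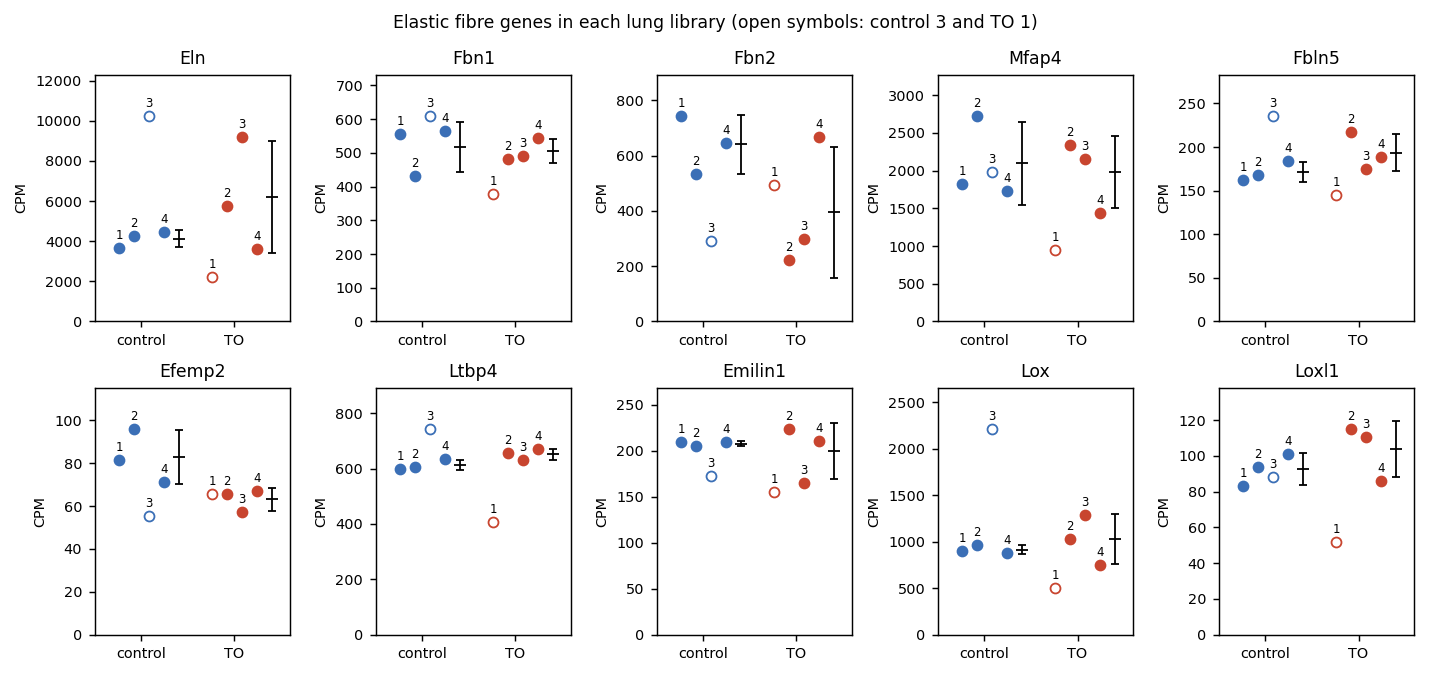
CPM (vertical axis, linear from 0) of the 10 elastic fibre genes in each control and TO library. Points are numbered by library, filled for the 6 libraries compared first and open for control 3 and TO 1, and black bars are the mean and SD of the filled points. Control 3 stands above the other controls for Eln and Lox, and Efemp2 alone has filled points that do not overlap between groups.

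Eln, which encodes tropoelastin (chromosome 5, 134702593 to 134747323 on the minus strand of GRCm38), reached 3664.7, 4237.9, 10257.2 and 4467.5 CPM in control 1 to 4. In TO 1 to 4 it reached 2213.8, 5777.5, 9190.6 and 3627.4 CPM. Both libraries numbered 3 were at least 9190.6 CPM while the other 6 stayed at or below 5777.5, and the groups overlapped. By mean CPM in the 6 libraries, which is not corrected for gene length, Eln held the 4th place of all genes tested. Its mean there was 4123.4 ± 413.5 CPM in control and 6198.5 ± 2805.4 in TO (SD, n = 3 each), a fold of 1.5 with a 95% confidence interval of 0.969 to 2.31 (log2 fold change 0.58, SE 0.28, edgeR adjusted p = 0.907). With all 8 libraries the log2 fold change was -0.12 (SE 0.42), and it returned to 0.13 without TO 1 and to 0.35 without control 3. The difference in the 6 libraries fell to 0.20 without TO 3 and rose to 0.86 without TO 4.

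The fibrillins form the microfibril scaffold. Fbn1 encodes fibrillin-1, the main fibrillin of adult tissue (chromosome 2, 125300594 to 125507993, minus strand), and it had 556.8, 432.3, 610.3 and 565.5 CPM in control 1 to 4. In TO 1 to 4 it had 378.7, 481.3, 490.5 and 545.2 CPM. The 6 libraries overlapped closely, with a fold of 0.975 and an interval of 0.79 to 1.2.

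Fbn2 encodes fibrillin-2, the fibrillin most associated with development (chromosome 18, minus strand). Its CPM was 744.5, 532.4, 291.5 and 645.2 in control 1 to 4. In TO 1 to 4 it was 492.3, 222.6, 298.8 and 665.7. Low levels, under 300 CPM, were found in TO 2, TO 3 and control 3, and TO 4 lay among the controls. In the 6 libraries the means were 640.7 ± 106.1 CPM in control and 395.7 ± 236.9 in TO (SD, n = 3 each), the largest difference of the 10 genes on the log2 scale, -0.69 (SE 0.35), with an interval of the fold from 0.356 to 1.08. This difference did not pass the test (edgeR adjusted p = 0.907) and was -0.41 (SE 0.35) in all 8 libraries. The value depended on the TO library left out of the 6: the log2 fold change of Fbn2 was -0.40 without TO 2 and -1.30 without TO 4. The fit without TO 4 (edgeR adjusted p = 0.0532) gave the only call of any of the 10 genes when a library was left out. It called 144 genes over all genes, against 0 with the 6 libraries. Leaving TO 4 out of all 8 libraries gave -0.75 (SE 0.34) and no call.

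Mfap4, a microfibril-associated glycoprotein that binds both tropoelastin and fibrillin (chromosome 11, 61485431 to 61488900, plus strand), had 1821.9, 2728.9, 1979.2 and 1734.9 CPM in control 1 to 4. Its TO levels were 950.2, 2341.2, 2152.5 and 1435.4 CPM. The libraries numbered 2 were highest within each group and TO 1 was lowest of all. The fold in the 6 libraries was 0.941, with an interval of 0.67 to 1.32.

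The adaptor proteins gather tropoelastin and the enzymes onto the scaffold. Efemp2, fibulin-4, which brings lysyl oxidase to tropoelastin (chromosome 19, 5473954 to 5482517, plus strand), had 81.3, 95.9, 55.4 and 71.0 CPM in control 1 to 4. In TO 1 to 4 it had 65.4, 65.5, 57.0 and 67.1 CPM. In the 6 libraries every control lay above every TO library, while control 3 was lowest of all 8. Its means in the 6 libraries were 82.8 ± 12.5 CPM in control and 63.2 ± 5.42 in TO (SD, n = 3 each), a fold of 0.764 with an interval of 0.616 to 0.947 (log2 fold change -0.39, SE 0.14). The edgeR adjusted p was 0.907, and with all 8 libraries the log2 fold change was -0.26 (SE 0.17). It was the 1 of the 10 genes whose groups did not overlap in the 6 libraries, where 10.9% of all genes tested did not overlap, 5.81% with TO lower and 5.09% with TO higher. In all 8 libraries none of the 10 was without overlap, against 2% of all genes.

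Fbln5, fibulin-5, which binds elastin to cells and to Loxl1 (chromosome 12, 101746565 to 101819055, minus strand), had 162.3, 168, 235.9 and 184.2 CPM in control 1 to 4. In TO 1 to 4 it had 144.6, 217, 175.1 and 188.3 CPM. Control 3 was highest and the groups overlapped. The fold in the 6 libraries was 1.13, with an interval of 0.938 to 1.35. Ltbp4 encodes a latent TGF-beta binding protein that guides fibulin-5 and elastin onto microfibrils (chromosome 7, 27305136 to 27337692, minus strand). It was the steadiest of the 10 genes, with 599.1 to 742.6 CPM in the 4 controls and 631.1 to 668.8 CPM in TO 2 to 4, a 1.24-fold range over 7 libraries. TO 1 stood apart at 406.3 CPM, from 118 read pairs (95% Poisson interval 336.3 to 486.5 CPM, for counting error only). The fold of Ltbp4 in the 6 libraries was 1.06 with an interval of 0.908 to 1.24. Emilin1, a glycoprotein at the boundary between elastin and microfibrils (chromosome 5, 30913402 to 30921277, plus strand), had 209, 204.6, 172.4 and 209.5 CPM in control 1 to 4 and 154.9, 223.5, 165.3 and 210.4 CPM in TO 1 to 4. Its lower levels, under 175 CPM, were those of both libraries numbered 3 and of TO 1. The fold in the 6 libraries was 0.962 with an interval of 0.785 to 1.18.

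The lysyl oxidases cross-link the deposited tropoelastin. Lox (chromosome 18, minus strand), which also cross-links fibrillar collagens, had 901.3, 968.8, 2210.6 and 873.7 CPM in control 1 to 4. In TO 1 to 4 it had 506.1, 1033.5, 1287.8 and 751.2 CPM. As with Eln, the highest library of each group was number 3. The fold in the 6 libraries was 1.12 with an interval of 0.85 to 1.47. With all 8 libraries the log2 fold change of Lox was -0.46 (SE 0.34), and it was -0.01 without control 3. Loxl1, the lysyl oxidase-like enzyme tied to elastin through fibulin-5 (chromosome 9, 58287738 to 58313186, minus strand), had 83.2, 93.8, 88.3 and 101 CPM in control 1 to 4 and 51.6, 115, 110.6 and 86.1 CPM in TO 1 to 4. The value in TO 1 rests on 15 read pairs and its Poisson interval runs from 28.9 to 85.2 CPM. Loxl1 did not share the high level of Lox in control 3, and its fold in the 6 libraries was 1.12 with an interval of 0.904 to 1.38.

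**Figure D2:**
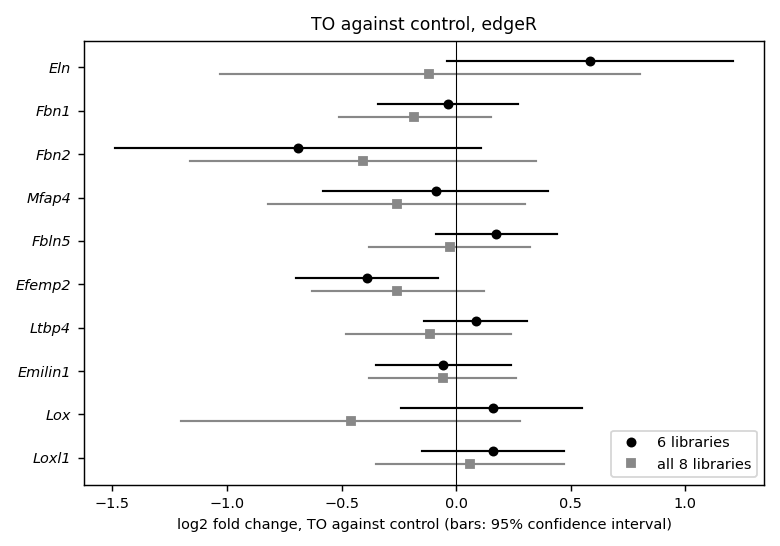
Log2 fold change of TO against control (horizontal axis, right of 0 is higher in TO) for the 10 elastic fibre genes, as black circles for the 6 libraries and grey squares for all 8, with 95% confidence intervals as bars. The interval of Efemp2 in the 6 libraries alone leaves out 0, and Eln and Fbn2 have the widest intervals there.

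Levels were compared between genes as CPM per kilobase of annotated exon. In the 3 controls of the 6 libraries the order was Mfap4 (1090.1), Eln (509.2), Lox (191.4) and Ltbp4 (94.8 CPM per kb), then Fbn2, Fbn1 and Emilin1 (48.5, 42.7 and 42.1), and last Loxl1, Fbln5 and Efemp2 (28.1, 24.8 and 21.8). The first 4 places were the same in the 3 TO libraries, with Mfap4 at 1028.3, Eln at 765.4, Lox at 214.3 and Ltbp4 at 100.8 CPM per kb. Eln in TO ranged from 447.9 to 1134.9 CPM per kb and overlapped Mfap4, at 746.8 to 1218.1, while in control it stayed below Mfap4 except in control 3, where it reached 1266.6 CPM per kb. Fbn2 moved from the 5th place in control to the 8th in TO, but Fbn2, Fbn1 and Emilin1 were not separated beyond their spread in control, nor were Loxl1, Fbln5 and Efemp2. These exon lengths count every annotated exon once and are not the length of 1 transcript.

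Ratios of members within a library do not depend on the scaling between libraries. The Fbn2 to Fbn1 ratio of counts was 1.34, 1.23, 0.478 and 1.14 in control 1 to 4 and 1.3, 0.463, 0.609 and 1.22 in TO 1 to 4. Fibrillin-2 counts thus outnumbered those of fibrillin-1 in 5 libraries and fell below them in control 3, TO 2 and TO 3. The mean log2 ratio differed by -0.82 in the 6 libraries (exact permutation p = 0.2) and by -0.25 in all 8 (exact permutation p = 0.743). The Fbln5 to Efemp2 ratio was 2, 1.75, 4.26 and 2.59 in control 1 to 4 and 2.21, 3.31, 3.07 and 2.81 in TO 1 to 4. It did not overlap between groups in the 6 libraries, where TO was higher by 0.55 on the log2 scale (exact permutation p = 0.1, the smallest that 3 against 3 allows), while control 3 had the highest ratio of all and the difference in 8 libraries was 0.18 (exact permutation p = 0.6). The Lox to Loxl1 ratio was 8.65 to 11.6 in 7 libraries and 25 in control 3, with differences of -0.03 in 6 libraries and -0.36 in 8 (exact permutation p = 1 and 0.457). The Eln to Fbn1 ratio differed by 0.52 in 6 libraries and by 0.01 in 8 (exact permutation p = 0.3 and 0.971), and its highest values, 16.8 and 18.7, were those of control 3 and TO 3. All permutation tests were two-sided, and after Benjamini-Hochberg adjustment over the 4 ratios the smallest value was 0.4 in 6 libraries and 0.971 in 8.

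**Figure D3:**
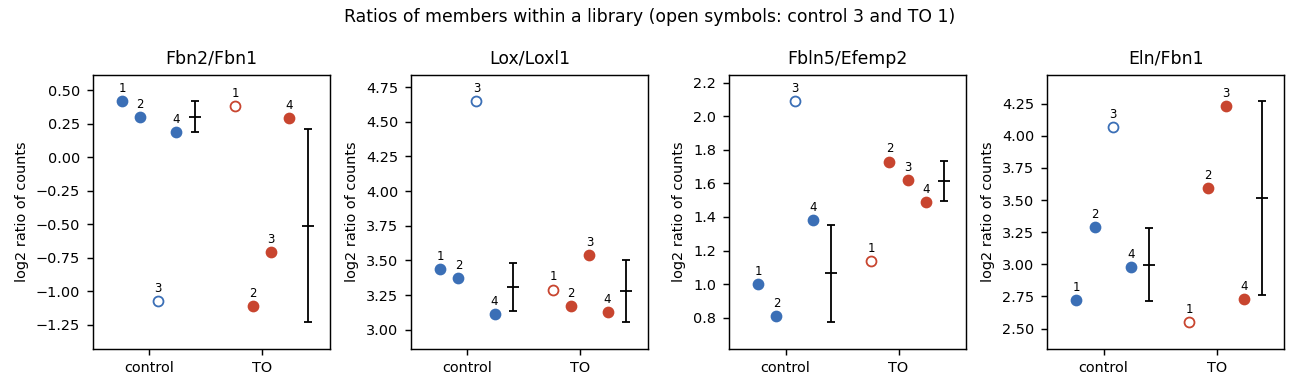
Log2 ratio of the counts of 2 elastic fibre genes within each control and TO library (vertical axis, not from 0), with points numbered by library, open for control 3 and TO 1, and the mean and SD of the other 6 as black bars. Control 3 is the highest control for Lox/Loxl1, Fbln5/Efemp2 and Eln/Fbn1 and the lowest for Fbn2/Fbn1.

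Eln, Lox, Fbn2 and Mfap4 differed between the sets of specimen digits. A term for the digits was added to the edgeR model beside the group after the values had been seen, and it compares 3 sets of libraries: numbers 1 and 4, number 2 and number 3. In all 8 libraries it called 4 of the 10 genes at an adjusted p under 0.1, where it called 5.5% of all genes tested, and without TO 1 it called 4 of the 10 and 5.59% of all genes. Of the lists described below it called, in all 8 libraries, 4 of 19 other microfibril and assembly genes and 2 of 13 proteases and inhibitors. It also called 3 of 6 lung epithelial, 2 of 8 matrix fibroblast, 2 of 10 smooth muscle and 8 of 8 proliferation genes. Among myofibroblast genes 1 of 8 was called, and 0 of 6 endothelial and 0 of 8 cardiac genes were. The adjusted p was 0.0046 for Eln, 0.00819 for Lox, 0.0269 for Fbn2 and 0.0535 for Mfap4, and without TO 1 it was 0.00687, 0.0203, 0.0563 and 0.0581 in that order. Against the mean of the other sets, the libraries numbered 3 had a log2 level of Eln higher by 1.21 (SE 0.19) and of Lox higher by 0.96 (SE 0.17). These values describe the set that had been seen to be high. They were not particular to the 10 genes. Adamtsl2, a microfibril-associated gene, was higher at number 3 by 1.32 (SE 0.24) and the myofibroblast gene Aspn by 0.99 (SE 0.15). Of the 19 other microfibril and assembly genes, 4 were called higher at number 3 and 3 lower. The share of all genes called in this way is not given here, so these counts are a description alone. For Fbn2 the lowest library was TO 2, below both libraries numbered 3. Mfap4 was highest in the set numbered 2 and lowest in numbers 1 and 4, as its levels above show. Fbn1, Fbln5, Efemp2, Ltbp4, Emilin1 and Loxl1 did not pass (adjusted p from 0.268 to 0.723).

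Within a shared number, the log2 difference of CPM between TO and control was -0.73, 0.45, -0.16 and -0.30 for Eln at number 1 to 4. For Lox it was -0.83, 0.09, -0.78 and -0.22. For Fbn2 it was -0.60, -1.26, 0.04 and 0.05. Eln and Lox were lower in TO at 3 of 4 numbers, 1 of which holds the shallow TO 1, and Fbn2 was lower in TO at numbers 1 and 2 alone. Efemp2, lower in TO in the 6 libraries, differed by -0.31, -0.55, 0.04 and -0.08. The group and the digits are not confounded over 8 libraries, but in the 6 libraries number 3 is present in TO alone and numbers 1 and 4 supply 2 of 3 controls.

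A list of 8 proliferation genes (Mki67, Top2a, Cdk1, Ccnb1, Bub1, Aurkb, Ccna2 and Birc5) was chosen after their values were seen and is given as a description. Its summed CPM was 1585.8, 1210.9, 409.0 and 1283.5 in control 1 to 4 and 1442.6, 777.5, 360.8 and 1277.2 in TO 1 to 4. The libraries with the highest Eln, both numbered 3, had the lowest sums, and control 2 lay beside control 4. Their part in the levels of Eln, Lox and Fbn2 was not tested.

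**Figure D4:**
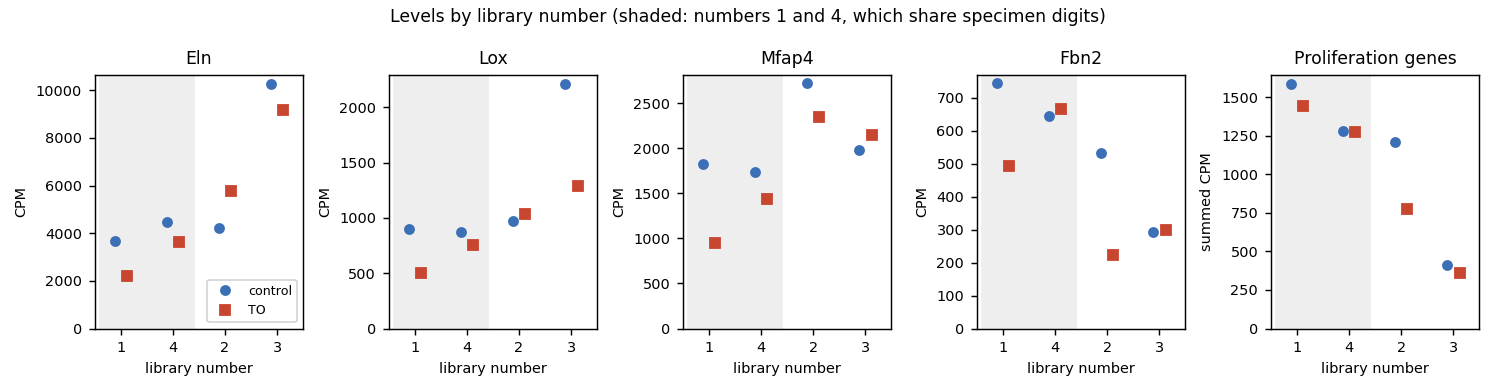
CPM of Eln, Lox, Mfap4 and Fbn2 and summed CPM of 8 proliferation genes (vertical axes, linear from 0) by library number, with controls as blue circles and TO as red squares. Numbers 1 and 4, shaded, share their specimen digits. At number 3 both groups are high for Eln and low for Fbn2 and for the proliferation genes.

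Markers of cells that make elastin were examined beside it. The summed CPM of 10 smooth muscle genes was 1043.2, 743.2, 1205.0 and 989.4 in control 1 to 4 and 891.7, 775.0, 700.8 and 1326.6 in TO 1 to 4. TO 3, with the highest Eln of the TO libraries, thus had the lowest smooth muscle sum, and TO 4 the highest. The sum of 8 lung myofibroblast genes was 1178.8, 1155.6, 1506.5 and 1085.7 in control 1 to 4 and 702.4, 1279.6, 951.6 and 1000.3 in TO 1 to 4. The sum of this list was highest in control 3, as was Eln, and that of TO 3 was not the highest in TO. Single genes differed from the sum. Aspn (171.9 CPM in control 3 and 129.5 in TO 3) and Pdgfra (380.9 and 269.4) were highest at number 3 in both groups. The other genes of the list were not. For 8 matrix fibroblast genes the sums were 5210.7 to 5828.7 in control and 5562.9 to 8707.2 in TO, for 6 endothelial genes 1606.2 to 2006.6 and 1156.8 to 2011.8, and for 5 mesothelial genes 493.4 to 917.6 and 365.0 to 702.6. Cardiac muscle genes varied most, and all 8 were detected in each of the 6 libraries: their sum was 762.8 and 536.5 in control 1 and 2, 5327.8 and 4219.5 in control 3 and 4, and 2487.6 to 7230.2 in the 4 TO libraries. These genes mark cardiac muscle. The tissue their RNA came from and their part in the elastic fibre levels were not tested. The airway cartilage sum was 49.7 to 75.8 in control and 51.6 to 144.6 in TO, and the sum of 6 lung epithelial genes, which include Nkx2-1 and Sftpc, was 7777.6 to 13480.2 in control and 5532.8 to 15182.7 in TO.

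In the 6 libraries edgeR and DESeq2 called 0 genes of these cell lists at an adjusted p under 0.1. Of the 8 myofibroblast genes 4 were higher and 4 lower (median log2 fold change -0.02), and 3 passed an unadjusted p under 0.05 in edgeR. These were Fgf18, a growth factor of the lung mesenchyme, with 17.3 ± 1.33 CPM in control and 11.6 ± 2.07 in TO, Tgfbi, a TGF-beta-induced matrix protein, with 344.9 ± 47.5 and 258.6 ± 64.4, and Enpp2, autotaxin, with 54.8 ± 7.24 and 83.5 ± 28.3 CPM (SD, n = 3 each). Pdgfra, the receptor that marks myofibroblast precursors, had 275.0 ± 22.7 CPM in control and 259.0 ± 10.2 in TO. The smooth muscle median was 0.22, with 6 of 10 genes higher. Tagln (0.25, SE 0.81, mean 0.455 CPM) is 1 of these 6 and helps to set the median, and its count is not reliable. The contractile genes Acta2 and Myh11 had log2 fold changes of -0.09 (SE 0.24) and -0.25 (SE 0.27). The matrix fibroblast median was 0.18, with 5 of 8 higher, and the fibrillar collagens Col3a1 and Col1a1, which Lox also cross-links, had log2 fold changes of 0.14 (SE 0.13) and -0.06 (SE 0.14). The median was -0.01 for endothelium (3 of 6 higher), -0.12 for lung epithelium (2 of 6 higher), 1.16 for cardiac muscle (8 of 8 higher), 0.15 for cartilage (3 of 6 tested higher) and 0.19 for mesothelium (4 of 5 higher). In all 8 libraries, TO 1 included, the median was -0.23 for myofibroblasts (0 of 8 higher), -0.23 for endothelium (1 of 6 higher), -0.26 for lung epithelium (2 of 6 higher) and -0.12 for mesothelium (2 of 5 higher), and it was 0.13 for smooth muscle, 0.04 for matrix fibroblasts, 0.26 for cartilage and 0.89 for cardiac muscle. The cardiac median in the 6 libraries was 2.59 without control 4 and from 0.75 to 1.44 without any of the other libraries, and the smooth muscle median was -0.06 without control 2. Outside the myofibroblast list, Epcam, an epithelial adhesion molecule, alone passed an unadjusted p under 0.05, with 166.1 ± 12.9 CPM in control and 113.1 ± 27.9 in TO (SD, n = 3 each).

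The wider elastic fibre pathway was described by 3 further lists. Of 19 other microfibril and assembly genes, all tested, 9 were higher and 10 lower in TO in the 6 libraries (median log2 fold change -0.01), 0 were called by edgeR or DESeq2 at an adjusted p under 0.1, and 2 passed an unadjusted p under 0.05 in edgeR. These 2 were Mfap5, a microfibril glycoprotein, at 10.2 ± 3.93 CPM in control and 18.9 ± 4.73 in TO (SD, n = 3 each), and Ltbp1, a latent TGF-beta binding protein, at 71.7 ± 16.0 and 99.1 ± 6.40 CPM. Both had an edgeR adjusted p of 0.907. The most abundant of the list were Bgn, a proteoglycan (log2 fold change -0.01), and Ltbp3, another latent TGF-beta binding protein (-0.04). Of 5 other cross-linking genes 2 were higher and 3 lower (median -0.04), with 0 called and 0 at an unadjusted p under 0.05. Bmp1, the protease that activates pro-lysyl oxidase, had a log2 fold change of -0.22 (SE 0.12), and Loxl2 one of -0.04 (SE 0.22).

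Of 17 elastin-degrading proteases and their inhibitors, 13 could be tested, and 8 were higher and 5 lower in TO (median 0.21, and 0.01 with all 8 libraries). Mmp9, gelatinase B, which cleaves elastin, had 2.5, 2.4, 4.07 and 2.14 CPM in control 1 to 4 and 44.8, 11.2, 6.69 and 10.6 CPM in TO 1 to 4. Its value in TO 1 rests on few read pairs, since 1 read pair there is worth 3.44 CPM. Every TO library was above every control. Over all genes tested in 8 libraries, the groups of 2% did not overlap in either direction. The log2 fold change of Mmp9 in the 6 libraries was 2.02 (SE 0.29). Mmp9 was the 1 gene of the pathway lists that DESeq2 called, while edgeR did not (edgeR adjusted p = 0.372). With all 8 libraries the log2 fold change was 2.24 (SE 0.50), called by DESeq2 (adjusted p = 0.016) and not by edgeR. Mmp9 is made mainly by leukocytes. Ctss, cathepsin S, a macrophage elastase, had 21.1 ± 3.05 CPM in control and 35.5 ± 11.8 in TO (SD, n = 3 each, edgeR adjusted p = 0.907). The most abundant were Timp3, a metalloproteinase inhibitor bound to the matrix (log2 fold change 0.27, SE 0.20), and Mmp14, a membrane-bound collagenase (-0.12, SE 0.12). Timp3 shares reads with genes on the other strand, so its level is uncertain.

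**Figure D5:**
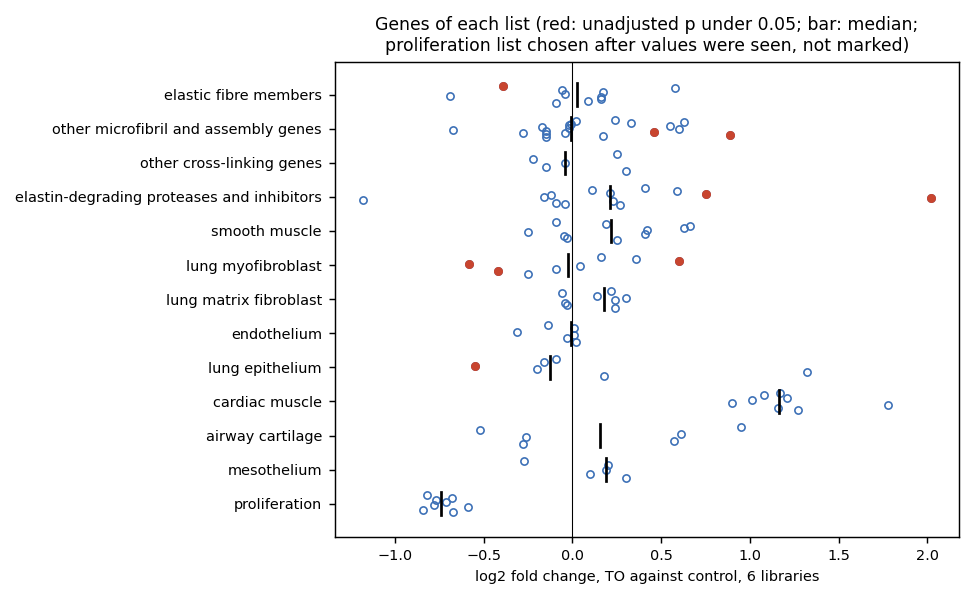
Log2 fold change of TO against control in the 6 libraries (horizontal axis) for each gene tested in the elastic fibre list, 3 pathway lists, 8 cell lists and the proliferation list. Each circle is a gene, red where the edgeR unadjusted p is under 0.05 outside the proliferation list, and black bars are medians. The medians lie between -0.12 and 0.22 apart from cardiac muscle (1.16) and proliferation (-0.74), whose genes did not pass the adjusted test.

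The genes whose log2 CPM had the highest Pearson correlation with that of Eln over 7 libraries, TO 1 left out, were Kdsr (r 0.997), Cela1 (0.996), Rabgap1l (0.995), Tsga10 (0.992) and Hip1r (0.990), followed by Pxk, Spopl, Slc2a13, Prpf18 and Eif4a2 (0.989 to 0.988). They were picked as the highest of 10765 genes with a mean of at least 10 CPM. The r does not measure the size of a change: Kdsr ran only from 35.1 to 44.7 CPM, where Eln had a 2.83-fold range. These correlations describe 7 libraries that share the specimen sets above, and the libraries numbered 3 were among those compared. Cela1, a pancreatic-type elastase that cleaves elastin, had 7.71, 8.54, 17.3 and 9.52 CPM in control 1 to 4 and 13.8, 11.4, 15.1 and 7.78 CPM in TO 1 to 4, where the value of TO 1 is 4 read pairs. Its highest libraries at full depth were control 3 and TO 3, those of Eln. In the 5 libraries left without number 3 its r with Eln was 0.99, and the r of the 10 picked genes was 0.92 to 0.99. These 5 libraries were among the 7 by which the genes were picked. The values are therefore largely set by that choice and do not test the link. Among the 10 elastic fibre genes Lox was nearest to Eln (r 0.90, place 430) and Emilin1 farthest (-0.82), followed by Fbn2 (-0.80) and Efemp2 (-0.77). Without number 3 the r with Eln was 0.76 for Lox, 0.98 for Loxl1 and 0.76 for Emilin1. The sign for Emilin1 thus rested on the libraries numbered 3, whereas that of Fbn2 (-0.92) did not. Of the 5 libraries without number 3, TO 2 had both the highest Eln (5777.5 CPM) and the lowest Fbn2 (222.6 CPM). The closest pair of members other than with Eln was Fbln5 and Ltbp4 (r 0.91).

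Over 7 libraries the variation coefficient of CPM was 46.4% for Eln, 43.6% for Fbn2 and 43.4% for Lox, and 7.49% for Ltbp4. The core protein, the developmental fibrillin and the main cross-linking enzyme were thus the most variable of the 10 genes in these lungs. Of the 10 genes, 6 overlap an annotated gene on the opposite strand: Gm30003 for Eln, Gm9913 for Fbn1, Gm26507 for Fbn2, Mapk7 for Mfap4, Mus81 for Efemp2 and AC161119.1 for Lox. The counts of the separate strands added up to 100% to 104.5% of the count without strand.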

How the data were processed

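Whole-lung RNA of 4 control and 4 TO fetuses was sequenced by the authors as paired 150-bp reads and aligned to GRCm38 (mm10) with STAR. Each deposited table holds, for every gene, the raw count of its read pairs regardless of strand, used here, and for each strand on its own, and nothing was normalized or filtered by the authors. The labels list STAR and DESeq2, with versions and annotation not given in the sources used here. Of 55385 gene IDs, 54487 were identical to GENCODE M21 and 55144 matched without the version, and symbols, coordinates and exon lengths came from that release. The overlap of genes on opposite strands was read from it.

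A gene was tested where 3 or more libraries had at least 5 reads of it, with the quasi-likelihood test of edgeR 4.0.16 (R 4.3.3, TMM scaling, Benjamini-Hochberg adjustment over all genes, threshold 0.1). DESeq2 1.42.0 and limma-voom (limma 3.58.1), other scalings and filters, single-strand counts, each library left out and blocks by number or by specimen digits were alternatives. CPM used the TMM factors of all 8 libraries, with a prior count of 2 on the log2 scale. Genes called most abundant were ranked by mean CPM, which is not corrected for gene length. The reads carry no molecular identifiers, so Poisson intervals cover counting error only. The 10 genes and all lists were chosen with earlier results of these data known, and the proliferation list, the digits as a model term and the 8-library DESeq2 fit were added after the values were seen. Named in the text are the 10 genes; from other lists, genes with an unadjusted p under 0.05 in edgeR in the 6 libraries or an adjusted p under 0.1 in any tool, and the 2 most abundant, of which those of the endothelial, epithelial, cardiac, cartilage and mesothelial lists are given by their sums and medians; and the 10 genes most correlated with Eln. Adamtsl2 and Aspn are named for their levels at number 3. In list sums and log2 fold changes, Tagln and Nppa, and to a lesser degree Timp3, Myh7, Prtn3, Ccna2, Loxl3, Smtn and Fkbp10, have uncertain counts. The counts of the separate strands add up to 32464.9% of the count without strand for Tagln and 966% for Nppa. For the others they add up to 123.2% to 190.7%. The smooth muscle, cardiac, proliferation and protease sums and medians therefore hold uncertain genes.

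Deviations from group means over 9335 genes correlated between same-numbered control and TO libraries (r 0.21, 0.34, 0.49 and 0.34 for number 1 to 4), so the numbers were taken to pair the samples, although TO 1 correlated more with control 4 (r 0.33). The test was tried on simulated data with 100 genes changed by a log2 of 1 and 100 by a log2 of 2. For TO against control in 6 libraries, over 20611 genes, edgeR called 42 and 83 of them and 19 unchanged genes. DESeq2 called 70 and 89 of them and 78 unchanged genes. The simulated libraries were drawn independently and share nothing by number or digits, unlike the real ones. These counts therefore do not give the power of the real comparison.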

Additional observations from a re-analysis of the deposited data

Results flagged for a closer look

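In 6 of 28 groups of 4 libraries examined, the highest or lowest library stood apart by Dixon's test. The groups were the 10 genes and 4 ratios in control and in TO. Chance alone does this in about 1 in 20 independent groups, whereas these groups share libraries and genes. Control 3 stood apart from the other controls for Eln (10257.2 CPM), Lox (2210.6 CPM), Emilin1 (172.4 CPM, the lowest) and the Lox to Loxl1 ratio of counts (25). TO 1, the shallow library, stood apart for Ltbp4 (406.3 CPM, the lowest TO library). TO 3 stood apart for Efemp2 (57.0 CPM, the lowest TO library, where the other 3 lay between 65.4 and 67.1 CPM). The 65.4 CPM is TO 1, with 19 read pairs and a Poisson interval of 39.4 to 102.2 CPM.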

How the results depend on the processing

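In the 6 libraries no alternative scaling, filter, test or strand changed the direction of any of the 10 genes. With all 8 libraries the log2 fold change turned to -0.12 for Eln, -0.03 for Fbln5, -0.46 for Lox and -0.12 for Ltbp4, and with 7 libraries, TO 1 left out, to -0.27 for Lox and 0.01 for Emilin1. The cause was not tested. Leaving out 1 of the 6 libraries moved the log2 fold change from 0.20 to 0.86 for Eln, -1.30 to -0.40 for Fbn2, -0.49 to -0.27 for Efemp2, -0.15 to 0.03 for Fbn1, -0.22 to 0.15 for Mfap4, -0.14 to 0.08 for Emilin1 and -0.02 to 0.35 for Lox. Leaving out 1 of all 8 moved it from -0.54 to 0.35 for Eln, -0.12 to 0.12 for Fbln5, -0.18 to 0.01 for Ltbp4, -0.15 to 0.02 for Emilin1 and -0.06 to 0.18 for Loxl1. The number of the 10 genes called ranged from 0 to 1 over 6 libraries and was 0 over 8. The ratio differences ranged from -0.16 to 0.05 for Lox/Loxl1 in 6 libraries and, in 8, from -0.31 to 0.28 for Eln/Fbn1 and -0.59 to 0.02 for Fbn2/Fbn1. With the counts of 1 strand the difference of Eln/Fbn1 in 8 libraries was -0.06. No exact p can be below 0.1 for 3 against 3 or 0.0286 for 4 against 4.

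With a replicate block by number, 0 of the 10 genes were called in 6 or in 8 libraries, so the pairing changed no call among them. In the 6 libraries, where numbers 2 and 4 alone are shared, the blocked log2 fold change was 0.08 for Eln, -0.60 for Fbn2 and -0.31 for Efemp2, and it turned for Fbn1 (0.05), Emilin1 (0.07) and Lox (-0.06). In 8 libraries, the shallow TO 1 included, it was -0.18 for Eln, -0.44 for Fbn2, -0.42 for Lox and -0.32 for Mfap4. The last 3 passed an unadjusted p under 0.05 in edgeR. With a block by specimen digits in the 6 libraries Eln moved from 0.58 to 0.11, and the values were 0.05 for Fbn1, 0.07 for Emilin1 and -0.09 for Lox. For the ratios the block was used in 8 libraries alone. There each number holds 1 library of each group, so the blocked differences equal those without the block by arithmetic and test nothing. Over all genes tested in the 6 libraries edgeR called 0 genes, DESeq2 44, edgeR without the filter on low counts 40, and edgeR with the replicate block 219. Without the block, edgeR called 144 genes when TO 4 was left out, 52 when control 4 was, and 0 when any other of the 6 was. Over 8 libraries edgeR called 0, DESeq2 7 and the block by number 3.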
